A study of Mus musculus with 31 samples.

Results

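The nuclear genes for subunits of oxidative phosphorylation were described across embryonic forebrain libraries of the mouse. Members were the protein-coding genes whose symbols fit a name pattern. For complex I it was Nduf followed by a, b, c, s or v and a digit. For the others it was Sdha to Sdhd (complex II), Uqcr and Cyc1 (complex III), Cox4 to Cox8 (complex IV) and Atp5 (ATP synthase). The rule used names only and no measured value. It gave 85 of 34865 gene identifiers in the bulk table and 86 of 55487 in the Smart-seq2 table, where Atp5o has a second identifier listed at 0 throughout. By complex there were 35 identifiers for complex I, 4 for complex II, 9 for complex III, 20 for complex IV and 18 for complex V. Ndufa4 and Ndufa4l2 fit the pattern of complex I but were counted in complex IV. A further 12 identifiers whose symbols fit the pattern are not protein-coding and were left out.

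Bulk RNA-seq covered dorsal diencephalon (3 libraries) and ventral diencephalon (3 libraries) of wild-type mice at embryonic stage E10.5. Smart-seq2, a full-length method for very small inputs, covered medial cortex at stage E11.5 from Emx1-CreERT2::MADM-11::Axin2LacZ/+ mice, with 13 libraries of the genotype Emx1-cre(+/-)::MDMD::Axin2(-/-) and 12 of Emx1-cre(+/-)::MDMD::Axin2(+/+). MADM (mosaic analysis with double markers) makes differently coloured mutant and wild-type cells in the same animal, here by recombination on chromosome 11, and Emx1 drives the recombinase in cells of the cortical lineage. The labels call the Smart-seq2 samples cells and name no animal for any of them. Nor do they state whether each bulk library is from its own embryo or pool, and the p-values given here rest on library-to-library spread alone, possibly of technical origin. All samples are labelled as neural progenitor cells. The progenitor factor Sox2 was at 68.6 to 100 CPM in dorsal and 115 to 129 CPM in ventral libraries, and it reached 1 TPM in 13 of 13 null and 11 of 12 wild-type Smart-seq2 libraries. The list of 14 progenitor and proliferation markers that holds Sox2 ran the other way, with sums of 1474 to 1615 CPM in dorsal and 914 to 994 CPM in ventral. Neuron markers were present too, with sums of 7874 to 8153 CPM in dorsal and 9425 to 10317 CPM in ventral. CPM are counts scaled to the library size after TMM normalization, and TPM are transcript levels scaled to a fixed sum per library.

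Oxidative phosphorylation passes electrons from NADH and succinate through complexes I to IV to oxygen, pumps protons across the inner mitochondrial membrane, and lets them flow back through ATP synthase (complex V) to make ATP. Its subunits come from both genomes: the mitochondrial DNA encodes a few core subunits of complexes I, III, IV and V, and the nucleus encodes the rest, which are imported. Neural progenitors are known to lean on glycolysis more than the neurons they give rise to. Factors known to bind nuclear genes of this system in mammals include NRF1, the ETS factor GABP and YY1.

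In the bulk tissue the members differed more within the dorsal group than between the regions. At the median member, dorsal library 3 was above the mean of dorsal libraries 1 and 2 by 0.90 on the log2 scale, while the log2 fold change of dorsal over ventral was -0.30. The dorsal libraries gave 1.43%, 1.51% and 2.35% of their counts to the members, against 2.07%, 2.08% and 1.98% in the ventral libraries. Dorsal library 3 was thus above every ventral library, and dorsal libraries 1 and 2 were below every one. With all 6 libraries, 0 of 80 tested members were higher in dorsal (7.14% of all 14701 genes tested were), and 2 were higher in ventral (9.54% of all genes), both subunits of complex III. Without dorsal library 3, 52 of 80 were higher in ventral (12.4% of all genes tested then) and 0 in dorsal (9.68%). The dorsal group was then 2 libraries. Leaving out ventral library 3 instead gave 6 higher in ventral (13.1% of all genes). Leaving out dorsal library 1 or 2, or ventral library 1 or 2, gave 0 (5.69% to 6.26%). In the Smart-seq2 libraries the members took a larger share in Axin2-null than in wild-type cells, at 4.99% ± 1.03 against 3.93% ± 0.704 (SD over 13 and 12 libraries), and the mitochondrially encoded subunits a smaller one.

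The promoters of 5 members that these comparisons turn on are shown with the letters of 3 motifs. They are from RefSeq's GRCm38.p6 annotation, which held a window (250 bases before to 50 after the start of transcription) for 68 of the 85 symbols. Uqcrb is among the other 17. Each line gives 120 bases before to 30 after the RefSeq start, 5′ to 3′ on the gene's strand. Uqcrfs1 passed the test between regions, Atp5k had the largest rise in dorsal library 3 among tested members, and Ndufa3, Uqcr11 and Atp5e had the largest null-minus-wild-type differences of complexes I, III and V. Capitals mark CGCATGCG (NRF1 core), CCGGAAG or CTTCCGG (ETS core), or AAGATGGC or GCCATCTT (YY1). The windows lie at chr13:30545287-30545436 (Uqcrfs1, minus strand), chr5:108434370-108434519 (Atp5k, minus), chr10:80406792-80406941 (Uqcr11, minus), chr7:3617253-3617402 (Ndufa3, plus) and chr2:174464072-174464221 (Atp5e, minus).
Uqcrfs1: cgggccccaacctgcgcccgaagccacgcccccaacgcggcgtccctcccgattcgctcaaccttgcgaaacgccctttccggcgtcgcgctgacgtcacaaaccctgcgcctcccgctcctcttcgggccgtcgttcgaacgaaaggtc
Atp5k: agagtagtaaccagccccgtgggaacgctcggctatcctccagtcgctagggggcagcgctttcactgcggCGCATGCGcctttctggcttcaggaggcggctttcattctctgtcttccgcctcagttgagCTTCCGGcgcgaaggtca
Uqcr11: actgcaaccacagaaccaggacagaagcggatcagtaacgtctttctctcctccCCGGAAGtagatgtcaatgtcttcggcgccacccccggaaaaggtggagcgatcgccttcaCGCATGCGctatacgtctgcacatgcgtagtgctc
Ndufa3: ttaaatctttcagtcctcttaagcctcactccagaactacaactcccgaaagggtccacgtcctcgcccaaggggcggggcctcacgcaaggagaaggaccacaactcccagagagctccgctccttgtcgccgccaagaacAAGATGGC
Atp5e: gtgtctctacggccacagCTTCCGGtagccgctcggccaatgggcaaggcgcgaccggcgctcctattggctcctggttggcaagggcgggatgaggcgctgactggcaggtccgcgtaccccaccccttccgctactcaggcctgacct

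Both strands were searched in the whole 300-base windows. The NRF1 letters stood in 12.3% of 73 member windows and 1.87% of 32851 windows of all genes. The ETS letters stood in 21.9% and 8.86%, and the YY1 letters in 13.7% and 2.75%. At least 1 of the motifs stood in 39.7% of the member windows and 12.6% of all windows. Atp5j, a subunit of the peripheral stalk of ATP synthase, was the only member with all 3 motifs, and Atp5k, Atp5l, Cox6a1 and Uqcr11 had the NRF1 and ETS letters. The Uqcrfs1 window held none of the 3. A match describes letters, not binding, and the RefSeq start of a gene can differ from the one used in these cells.

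The question of the bulk comparison is how dorsal and ventral diencephalon differ. In bulk tissue, fewer cells of a type and less RNA per cell cannot be told apart. The labels were checked against regional genes first. The thalamic factor Tcf7l2 was at 988 to 1207 CPM in the dorsal libraries and 59.3 to 72.8 CPM in the ventral ones. The hypothalamic factor Nkx2-1 was at 8.40 to 10.8 CPM in dorsal and 158 to 290 CPM in ventral. The ventral libraries held organ transcripts that the labels do not name: 20 small-intestine genes summed to 12.9 to 20.6 CPM in dorsal and to 7087, 12367 and 3475 CPM in ventral libraries 1, 2 and 3, and 13 exocrine pancreas genes to 3.95 to 6.76 CPM in dorsal and 2290, 4222 and 928 CPM in ventral. Of these lists 17 of 18 and 13 of 13 tested genes were higher in ventral (9.54% of all genes). Their part in the members' values was not tested.

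Complex III, which passes electrons from ubiquinol to cytochrome c, held both members past the threshold. Uqcrb, a small subunit beside the ubiquinone site (ENSMUSG00000021520, GRCm38 chr13:66900617-66905378, minus strand), was at 131, 141 and 219 CPM in dorsal libraries 1 to 3, against 307, 349 and 273 CPM in ventral libraries 1 to 3. The groups did not overlap, and dorsal library 3 lay closest to the ventral libraries. Its log2 fold change (dorsal over ventral) was -0.92 with an SE of 0.23 (adjusted p = 0.0293, edgeR quasi-likelihood test), 1.89-fold higher in ventral. Uqcrfs1, the Rieske iron-sulfur protein that takes electrons from ubiquinol (ENSMUSG00000038462, GRCm38 chr13:30540308-30545362, minus strand), was at 200, 202 and 225 CPM in dorsal and 337, 346 and 273 CPM in ventral. All 3 dorsal libraries were again lower, and dorsal library 3 was close to the other dorsal libraries. Its log2 fold change was -0.61 with an SE of 0.16 (adjusted p = 0.0359, edgeR), 1.52-fold higher in ventral. Both calls held without dorsal library 3 (adjusted p = 0.00451 for Uqcrb and 0.0211 for Uqcrfs1) and without ventral library 3 (0.0280 and 0.0142). With no expression filter Uqcrfs1 was lost (0.0529). Under the replicate number as a block neither passed (adjusted p = 0.0633 for Uqcrb and 0.0717 for Uqcrfs1, edgeR), though the labels do not say that these numbers pair libraries. Both were lost without dorsal library 1, dorsal library 2, ventral library 1 or ventral library 2, with an adjusted p from 0.0916 to 0.119 for Uqcrb and 0.133 to 0.147 for Uqcrfs1 (edgeR).

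Of the other 7 members of complex III, Uqcrc2 came next. This core subunit was at 178, 182 and 162 CPM in dorsal and 253, 237 and 227 CPM in ventral, again with no overlap (log2 fold change -0.45, SE 0.15, adjusted p = 0.0716, edgeR). The other core subunit, Uqcrc1, was at 291, 319 and 421 CPM in dorsal and 284, 379 and 305 CPM in ventral, and its groups overlapped (log2 fold change 0.09, SE 0.20). The small subunits split the dorsal libraries. Uqcr11, a small subunit of the complex, was at 103 and 123 CPM in dorsal libraries 1 and 2 and at 264 CPM in dorsal library 3, against 193, 201 and 163 CPM in ventral. The ventral libraries therefore lay between the dorsal ones. Over the 5 small subunits the median log2 fold change was -0.19 with all libraries and -0.71 without dorsal library 3, and all 5 then passed the test. Over the 4 catalytic and core members it was -0.22 and -0.24, and 2 passed without that library.

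Complex I, which takes electrons from NADH, had 0 of 35 members past the threshold with all libraries and 23 without dorsal library 3, all lower in dorsal. Its median log2 fold change was -0.28, and -0.60 without that library. Ndufb9, an accessory subunit of the membrane arm with the highest level per kilobase in the complex, was at 194, 208 and 346 CPM in dorsal and 365, 346 and 311 CPM in ventral. Ndufb6, another membrane arm subunit, had the lowest fold change of the complex and was at 88.9, 100 and 152 CPM in dorsal and 172, 175 and 150 CPM in ventral (log2 fold change -0.54, SE 0.23, adjusted p = 0.150, edgeR). Both showed dorsal libraries 1 and 2 under the ventral range and dorsal library 3 inside it. Ndufb7, also of the membrane arm, was at 101, 110 and 324 CPM in dorsal and 167, 161 and 173 CPM in ventral. Its log2 fold change was 0.10 with all libraries and turned to -0.65 without dorsal library 3 (adjusted p = 0.0114, edgeR). Split by part of the enzyme, 4 of 8 members of the NADH-oxidising N module, 5 of 8 of the ubiquinone-reducing Q module and 14 of 19 of the membrane arm were higher in ventral without dorsal library 3.

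Complex II, succinate dehydrogenase, had the median log2 ratio of dorsal library 3 over dorsal libraries 1 and 2 nearest to 0 of the complexes, at 0.06. Its members did not move together, with ratios of -0.82 for Sdha, 0.47 for Sdhb, 0.07 for Sdhc and 0.06 for Sdhd. Sdha, the flavoprotein that oxidises succinate, was at 215, 262 and 134 CPM in dorsal and 313, 349 and 187 CPM in ventral. Library 3 was the lowest of its region in both. Sdhb, the iron-sulfur subunit, was at 283, 309 and 411 CPM in dorsal and 434, 417 and 382 CPM in ventral, and it alone of the 4 passed once dorsal library 3 was left out (-0.47 on the log2 scale, adjusted p = 0.0269, edgeR). Sdhc, a membrane anchor, was at 137, 148 and 149 CPM in dorsal and 135, 136 and 164 CPM in ventral, with a log2 fold change below 0.01 in size (0.00081, SE 0.16).

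Complex IV, cytochrome c oxidase, had 0 of 15 tested members past the threshold with all libraries. Without dorsal library 3, 11 were higher in ventral, and these were the 11 isoforms that most tissues use. Cox6c, with the highest level per kilobase in the complex, was at 199, 225 and 467 CPM in dorsal and 408, 451 and 426 CPM in ventral. Its log2 fold change was -0.53 (SE 0.31, adjusted p = 0.299, edgeR) and -1.01 without dorsal library 3 (adjusted p = 0.00334). Cox4i1, which regulates the enzyme by binding adenine nucleotides, was at 310, 335 and 769 CPM in dorsal and 476, 440 and 500 CPM in ventral. Dorsal library 3 was the highest of the 6 for both genes. The general isoforms Cox6a1, Cox6b1, Cox7a2, Cox7b, Cox8a and Ndufa4 gave log2 fold changes from -0.53 to -0.19 with all libraries and from -0.91 to -0.61 without dorsal library 3, and each passed then. Cox7a2l, which joins complexes III and IV into supercomplexes, was at 77.6, 78.1 and 145 CPM in dorsal and 114, 111 and 77.4 CPM in ventral, and did not pass in either fit.

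ATP synthase had 0 of 17 tested members past the threshold with all libraries and 10 without dorsal library 3. Atp5b, the catalytic beta subunit and the most abundant member per kilobase of all, was at 1747, 1843 and 1689 CPM in dorsal and 2096, 2061 and 1851 CPM in ventral. The groups did not overlap (log2 fold change -0.19, SE 0.12, adjusted p = 0.324, edgeR), and dorsal library 3 was not raised. Atp5d, the delta subunit of the central stalk, was at 169, 187 and 338 CPM in dorsal and 202, 164 and 177 CPM in ventral (log2 fold change 0.35, SE 0.27, and -0.02 without dorsal library 3). Atp5s, or factor B, was at 14.3, 13.6 and 15.4 CPM in dorsal and 24.1, 20.5 and 19.6 CPM in ventral, with no overlap (log2 fold change -0.57, SE 0.22, adjusted p = 0.132, edgeR). Atp5k, the e subunit of the membrane part, was at 52.1, 57.8 and 205 CPM in dorsal and 140, 142 and 146 CPM in ventral. All 4 small membrane subunits, but 2 of 5 subunits of the F1 head, passed without dorsal library 3. The genes Atp5g1, Atp5g2 and Atp5g3 encode the same mature c subunit of the rotor. Their log2 fold changes were -0.30, 0.16 and -0.42 with all libraries, and of the 3 only Atp5g1 passed without dorsal library 3 (-0.74, adjusted p = 0.00980, edgeR).

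**Figure D1:**
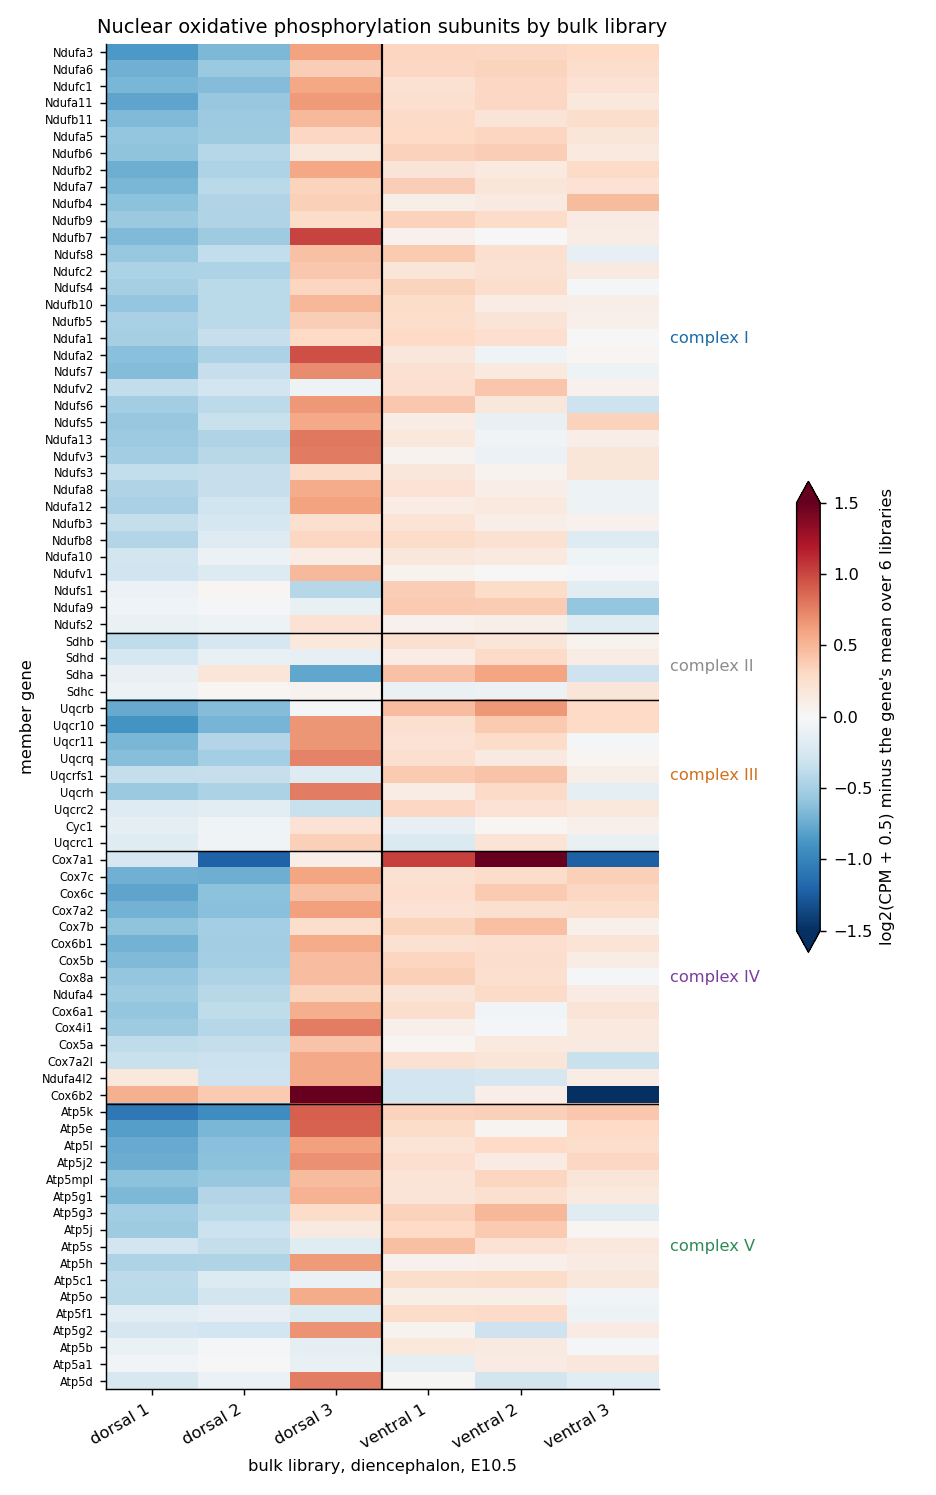
Level of each of the 80 tested members in each bulk library (columns) as log2(CPM + 0.5) minus the gene's own mean over the 6 libraries, grouped by complex (rows). Dorsal libraries 1 and 2 are mostly below the mean and dorsal library 3 is above both for 72 of 80 members, and the highest of the 6 for 53.

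Across the 80 tested members, 68 had a log2 fold change below 0 (49.5% of all genes tested), and the median was -0.30 against 0.01 for all genes tested. At an unadjusted p under 0.05 there were 7, all lower in dorsal (16.2% of all genes): beside the genes above, Atp5c1, the gamma subunit of ATP synthase, and Ndufv2, an iron-sulfur subunit of complex I. In 9 members all dorsal libraries lay below all ventral libraries (20.0% of all genes), and in 1, Cox6b2, all lay above (19.0%). Dorsal libraries 1 and 2 alone lay below all ventral libraries in 65 members (29.3% of all genes). Dorsal library 3 was above both other dorsal libraries in 72 members (43.0% of all genes) and the highest of the 6 libraries in 53 (22.9%). Its level was 1.88 times the mean of dorsal libraries 1 and 2 at the median member, a log2 ratio of 0.90 against -0.02 for all genes tested. Leaving it out gave 78 of 80 log2 fold changes below 0 (50.8% of all genes) and a median of -0.61 (-0.01 for all genes). The dorsal group is then 2 libraries, with 1.43% and 1.51% of their counts in members.

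**Figure D2:**
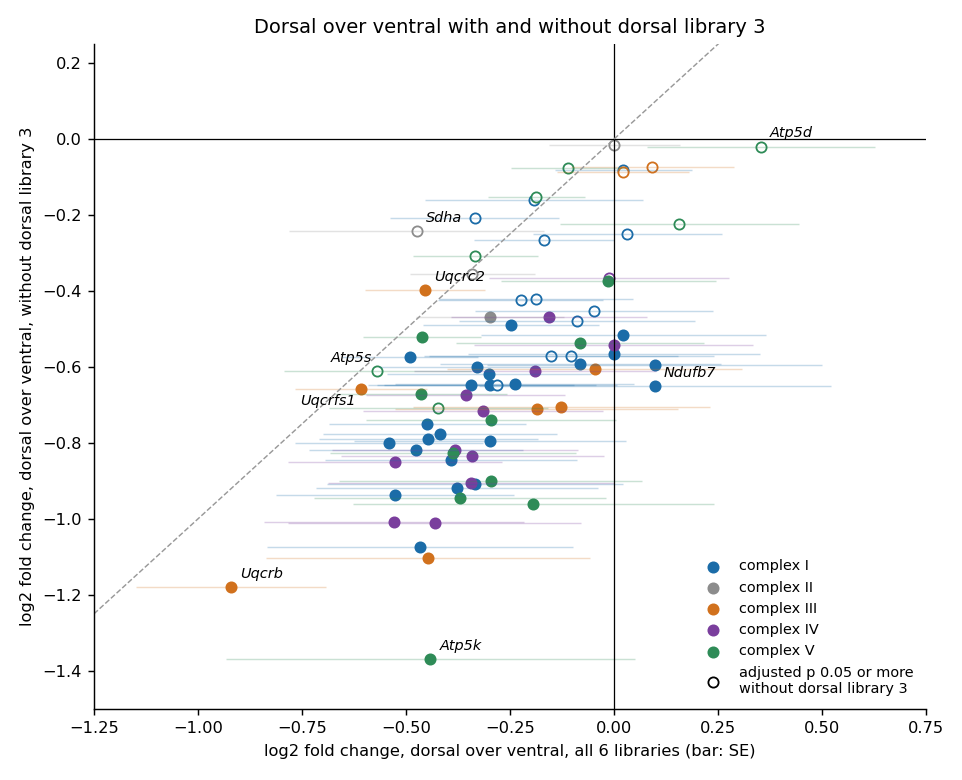
Log2 fold change (dorsal over ventral) of 77 tested members with all 6 libraries (horizontal, bars give the SE) and without dorsal library 3 (vertical), coloured by complex; the 3 tested restricted isoforms of complex IV are not drawn, and the dashed line marks equal values. Most points lie under the line, and filled points, those past the adjusted threshold without dorsal library 3, number 52.

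Dorsal library 3 was also apart in other genes. Cytosolic ribosomal protein genes took 1.32%, 1.36% and 2.78% of the counts in dorsal libraries 1 to 3 and 1.71% to 1.86% in ventral. Lars2, the mitochondrial leucyl-tRNA synthetase, was at 2692, 1082 and 24431 CPM in dorsal libraries 1 to 3 and 305 to 1430 CPM in ventral. The mitochondrially encoded subunits went the other way, with 1.14% of the counts in dorsal library 3 and 1.58% and 1.56% in dorsal libraries 1 and 2. The part of these features in the members' values was not tested.

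The rise in dorsal library 3 followed the length of the coding sequence. In members of up to 300 coding bases the median log2 ratio of dorsal library 3 over dorsal libraries 1 and 2 was 1.24. In the next classes, which end at 500, 1000 and 2000 bases, it was 0.99, 0.71 and 0.11. Other protein-coding genes of the same classes gave 0.55, 0.43, 0.19 and -0.11, so short genes were higher in that library in general and members more so in each of these classes. Spearman's rho with coding length was -0.64 over 80 members and -0.31 over 13901 other genes. These are descriptions across genes, which share the libraries and are not replicates. The 8 members not raised above both other dorsal libraries were Sdha, Ndufs1, Uqcrc2, Atp5b, Atp5a1, Ndufa9, Atp5f1 and Sdhd, of which all but Atp5f1 and Sdhd have a coding sequence over 1000 bases. The same classes gave medians of -0.84, -0.67, -0.53 and -0.20 for members in dorsal over ventral without dorsal library 3, and -0.54, -0.41, -0.18 and -0.01 for other genes. The median of the cytosolic ribosomal protein genes was then -0.51. The part of transcript length in the 52 calls was not tested.

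**Figure D3:**
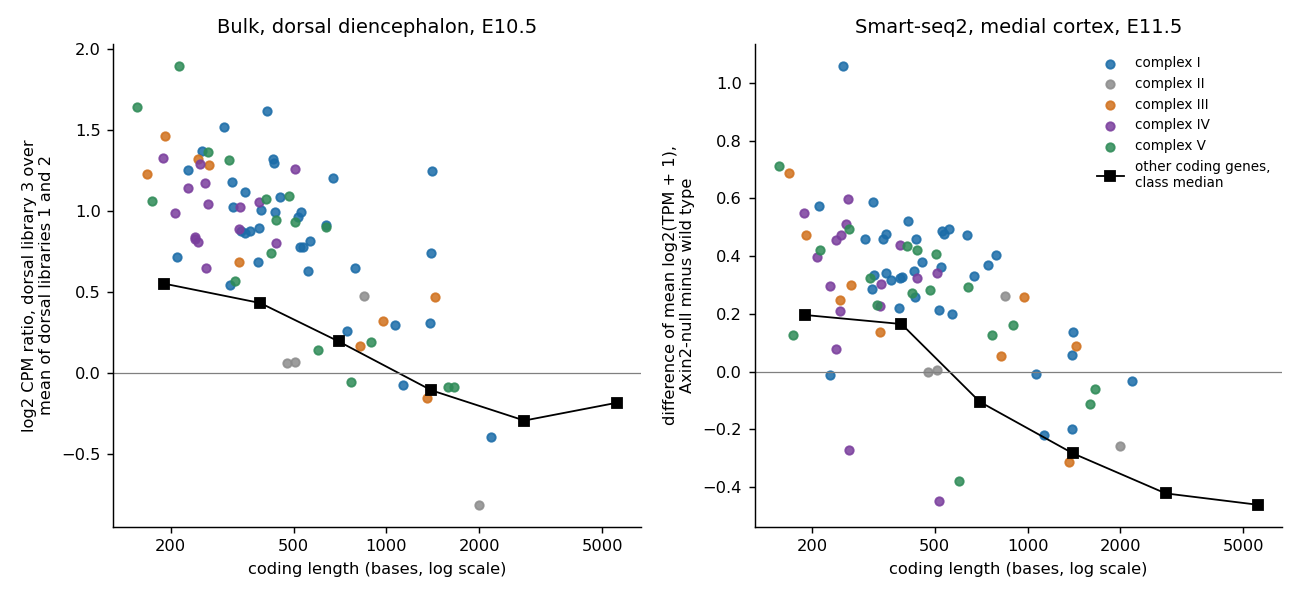
Left, log2 ratio of dorsal library 3 over the mean of dorsal libraries 1 and 2 for each tested member; right, the difference of mean log2(TPM + 1), Axin2-null minus wild type; both against coding length on a log axis, with black squares for the class medians of other coding genes. In both panels short members stand highest, and Spearman's rho over members is -0.64 on the left and -0.49 on the right.

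Several members have near-identical copies, which limits what a count can be assigned to. Copies of at least 95% identity over at least 150 bases elsewhere in the annotation were found for 23 members, 44 in all, and 34 of them held bulk counts. In 4 members the copies held over 5% of the member's own counts: Atp5g2 (77.5%, the pseudogene Gm10175), Ndufb4 (74.9%, Ndufb4c), Cox7b (8.98%) and Ndufa12 (7.29%), so the values of these members are uncertain. In the Smart-seq2 libraries Ndufb4c had a mean of 468 TPM in null and 325 TPM in wild type, above Ndufb4 itself at 104 and 81.3 TPM. Gm10221, a copy of Atp5l with 0 bulk counts, had 260 and 323 TPM there, against 991 and 777 TPM for Atp5l. Some copies were counted almost only in ventral libraries. Gm13771, a copy of Cox7b, was at 0.0942, 0.0963 and 0.795 CPM in dorsal and 34.6, 55.1 and 17.8 CPM in ventral libraries 1 to 3. Gm2962, a copy of Uqcrb, was at 0.0471, 0 and 0.397 CPM in dorsal and 10.3, 20.2 and 13.2 CPM in ventral. With all copies added, Uqcrb came to 131, 141 and 219 CPM in dorsal and 317, 369 and 286 CPM in ventral, still without overlap. Uqcrfs1 has no such copy. In addition 7 members overlap a gene at their own locus that shares sequence with them, among them Atp5f1 with Wdr77 and Ndufb5 with Mrpl47.

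The isoforms of complex IV that are known from single tissues were scarce. Cox6b2, known from testis, held 63, 55 and 111 counts in dorsal and 30, 38 and 0 in ventral libraries, and it did not pass (log2 fold change 1.74, SE 1.14, adjusted p = 0.350, edgeR). Its partner Cox6b1 was at 245 to 589 CPM in dorsal and 463 to 479 CPM in ventral. Cox7a1, the isoform of heart and skeletal muscle, held 24, 7 and 28 counts in dorsal and 70, 97 and 6 in ventral (log2 fold change -1.57, adjusted p = 0.338, edgeR). Ndufa4l2, a hypoxia-induced relative of Ndufa4, held 31, 19 and 37 counts in dorsal and 19, 18 and 25 in ventral. Cox4i2, Cox6a2, Cox7b2, Cox8b and Cox8c were under the expression filter, with totals over the 3 libraries of 13, 0, 2, 1 and 2 counts in dorsal and 1, 3, 11, 15 and 0 in ventral. Muscle markers summed to 5.13 to 9.03 CPM in dorsal and 11.3 to 25.3 CPM in ventral, with 2 of 10 at 0 in every dorsal library. Acta1 was the 1 of 3 tested that passed, higher in ventral (9.54% of all genes). Cardiac markers summed to 4.24 to 9.88 CPM in dorsal and 16.9 to 21.5 CPM in ventral, and 1 of 2 tested was higher in ventral. Blood vessel and pericyte markers summed to 7.75 to 15.2 CPM in dorsal and 14.8 to 27.7 CPM in ventral, and 1 of 6 tested was higher in ventral. The part of these tissues in the isoform counts was not tested.

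Genes that work with the subunits were read from lists. Of 47 assembly factors, which build the complexes and are not part of them, 46 were tested. With all libraries 0 passed in either direction (edgeR, 16.7% of all genes). At an unadjusted p under 0.05 there was 1, and DESeq2 called 0. Without dorsal library 3, 8 were higher in ventral (12.4% of all genes). Of 9 carriers and cytochrome c genes 3 of 7 tested were higher in ventral (9.54% of all genes). Slc25a5, the adenine nucleotide carrier that exchanges ADP for ATP, was at 393, 435 and 335 CPM in dorsal and 1105, 1192 and 821 CPM in ventral (log2 fold change -1.42, SE 0.19, adjusted p = 0.00193, edgeR). Vdac2, a channel of the outer membrane, was at 189, 200 and 192 CPM in dorsal and 332, 355 and 320 CPM in ventral (adjusted p = 0.00682). Dorsal library 3 was not raised for either gene. The 13 mitochondrially encoded subunits summed to 15347, 15425 and 11390 CPM in dorsal and 28421, 38753 and 17162 CPM in ventral. With edgeR 5 of them passed, all lower in dorsal (9.54% of all genes), and 1 passed once dorsal library 3 was left out (12.4%). At an unadjusted p under 0.05 (16.2% of all genes), and also with DESeq2 (13.7%), 12 were lower in dorsal. Among the 5, mt-Nd3 of complex I was at 41.0, 33.6 and 71.4 CPM in dorsal and 279, 280 and 137 CPM in ventral.

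In the citric acid cycle, which feeds NADH and succinate to the complexes, 1 of 18 genes was higher in dorsal (Pcx) and 1 in ventral (Sucla2). In glycolysis 1 of 21 was higher in dorsal (3 with DESeq2, which also called 3 in ventral), the brain aldolase Aldoc, at 46.3, 45.5 and 36.5 CPM against 5.68, 5.80 and 5.02 CPM in ventral (log2 fold change 2.96, SE 0.23, adjusted p = 0.000159, edgeR). Of 11 genes of ubiquinone synthesis 1 was higher in ventral, Coq9. Of 17 regulators of mitochondrial biogenesis 2 were higher in dorsal, the mitochondrial DNA polymerase Polg and the nuclear receptor Esrrb. Cell-type lists differed between the regions too. Of 14 progenitor and proliferation markers 8 were higher in dorsal, such as Pax6, and 2 in ventral. Sox2 of this list was at 68.6 to 100 CPM in dorsal and 115 to 129 CPM in ventral. Of 14 neuron markers 1 was higher in dorsal and 5 in ventral, such as the synaptic vesicle protein Syt1 (log2 fold change -1.72, SE 0.30, adjusted p = 0.00669, edgeR). The summed neuron markers were at 7874 to 8153 CPM in dorsal and 9425 to 10317 CPM in ventral, and the summed progenitor markers at 1474 to 1615 CPM in dorsal and 914 to 994 CPM in ventral. Red blood cell markers summed to 192 to 298 CPM in dorsal and 115 to 195 CPM in ventral, and 2 of 7 tested were higher in dorsal. Their part in the members' values was not tested.

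The Smart-seq2 comparison asks how Axin2-null and wild-type cells of the medial cortex differ. Since each genotype counts as 1 sample, no test was made, and the depth behind the TPM is unknown. Axin2 itself was at 0, 3.28 and 22.4 TPM (lowest, median and highest) in null and 4.32, 13.2 and 35.9 TPM in wild-type libraries. The ranges overlapped, 11 of 13 null libraries had at least 1 TPM, and which part of the transcript the allele removes is not given in the sources used here. Emx1, a marker of the cortical lineage, was at 7.0 TPM or more in all null and 32.1 TPM or more in all wild-type libraries. Null libraries held 7863 to 11852 genes at 1 TPM or more, with a median of 10791, and wild-type libraries 8693 to 12209, with a median of 11271.

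The members were near-universal in these cells. Of the 86 identifiers 76 reached 1 TPM in all 25 libraries, 5 were listed at 0 in all, and 81 passed a filter of a mean of 1 TPM. The share of TPM in members was 2.92%, 5.23% and 6.26% (lowest, median and highest) in null and 2.62%, 4.06% and 4.96% in wild-type libraries. The ranges overlapped, and 7 of 13 null libraries were above the highest wild-type library. On the difference of mean log2(TPM + 1), null minus wild type, 68 of 81 members were above 0 (34.1% of all 13680 genes with a mean of 1 TPM) and 13 below (65.9%). The median was 0.32 for members and -0.22 for all genes. With no expression filter these medians were 0.30 and 0. At a difference above 0.5 there were 9 members (8.33% of all genes), and 0 were below -0.5 (30.7%).

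**Figure D4:**
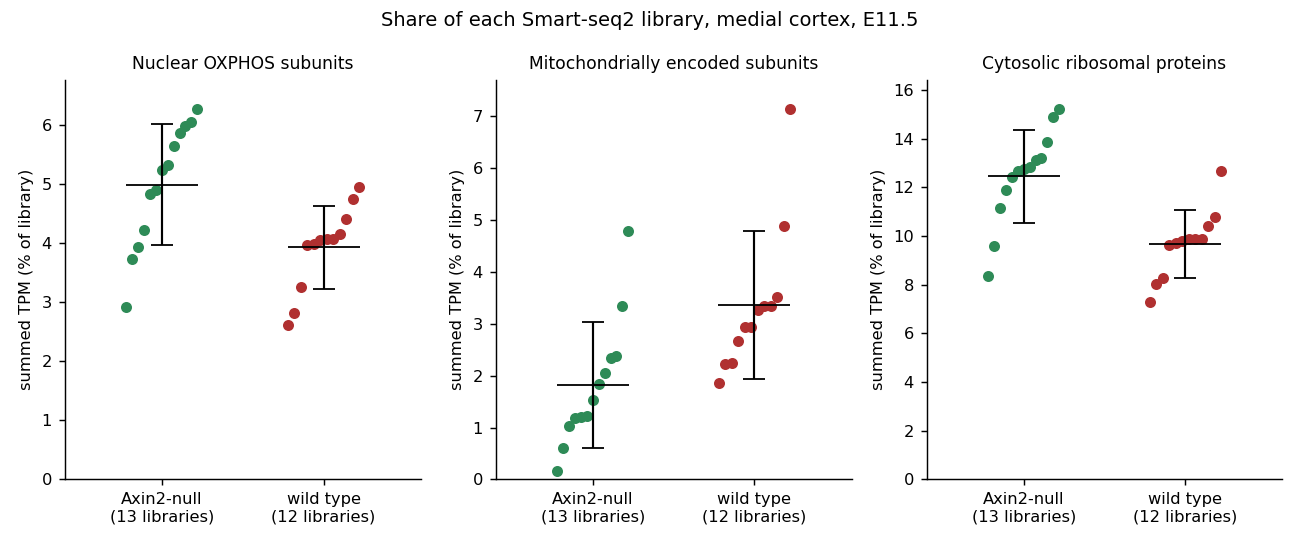
Summed TPM of the nuclear members, of the 13 mitochondrially encoded subunits and of cytosolic ribosomal proteins as a percent of each Smart-seq2 library, 1 point per library, with the mean and SD in black. Nuclear members and ribosomal proteins are mostly higher in the Axin2-null libraries and the mitochondrially encoded subunits mostly lower, with overlap in each panel.

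By complex, the shares were 1.61% ± 0.332 in null and 1.24% ± 0.242 in wild type for complex I, 0.103% ± 0.0230 and 0.0962% ± 0.0201 for complex II, 0.625% ± 0.154 and 0.489% ± 0.0894 for complex III, 1.23% ± 0.270 and 0.937% ± 0.188 for complex IV, and 1.42% ± 0.278 and 1.16% ± 0.190 for complex V (SD over 13 and 12 libraries). Complex II thus differed by less than its spread between libraries, while the others differed by about the larger SD of the genotypes. The median difference on the log2 scale was 0.34 for complex I, 0.003 for II, 0.25 for III, 0.33 for IV and 0.28 for V. In complex I 30 of 35 members were above 0, in complex II 2 of 4, in III 8 of 9, in IV 14 of 16 and in V 14 of 17.

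**Figure D5:**
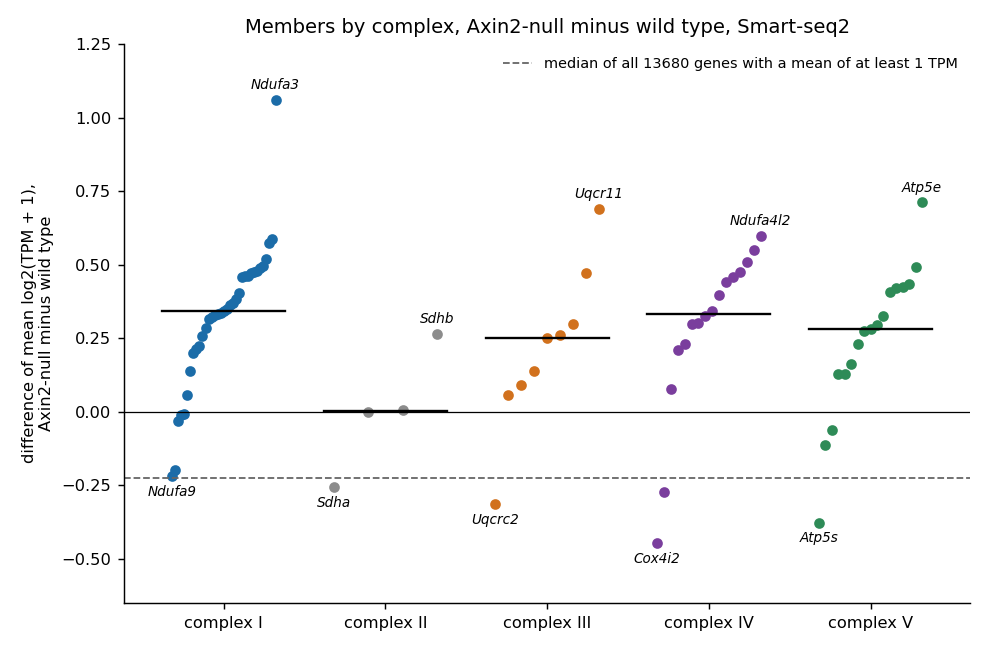
Difference of mean log2(TPM + 1), Axin2-null minus wild type, for each of the 81 members in the filter, by complex, with the complex median as a black bar and the median of all 13680 genes as a dashed line. All complex medians lie above the dashed line, that of complex II lies at 0.003, and the lowest and highest member of each complex are named.

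The largest difference was that of Ndufa3, a small membrane subunit of complex I. It was at 338, 564 and 1235 TPM (lowest, median and highest) in null and 120, 272 and 835 TPM in wild-type libraries, a difference of 1.06 on the log2 scale. The lowest null library was above the wild-type median. Atp5e, the epsilon subunit of ATP synthase, was at 1130, 1810 and 2697 TPM in null and 822, 1042 and 1529 TPM in wild type, a difference of 0.71. Uqcr11 of complex III was at 458, 1129 and 2090 TPM in null and 439, 717 and 1255 TPM in wild type, a difference of 0.69. Each of these 3 has a coding sequence of at most 252 bases.

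In complexes I to III the lowest differences were those of larger subunits. Uqcrc2, a core subunit of complex III, was at 70.5, 129 and 199 TPM in null and 36.4, 170 and 245 TPM in wild type (difference -0.31). Sdha of complex II was at 46.2, 97.3 and 195 TPM in null and 46.1, 129 and 196 TPM in wild type (difference -0.26). Ndufa9, a subunit of the Q module of complex I, was at 103, 215 and 271 TPM in null and 169, 240 and 320 TPM in wild type (difference -0.22). The groups overlapped for each. In complex V the lowest was Atp5s, at 0, 8.33 and 55.9 TPM in null and 0, 24.5 and 67.9 TPM in wild type (difference -0.38), with 9 libraries of each genotype at 1 TPM or more. In complex IV the restricted isoforms stood at both ends, with Ndufa4l2 at 0.60, Cox6b2 at -0.27 and Cox4i2 at -0.45. The sign for Ndufa4l2 turned, to -0.45, over the 9 null and 9 wild-type libraries with 10000 or more genes at 1 TPM, and that for Cox6b2 turned, to 0.14, with the difference of medians. By coding length, members in the classes that end at 300, 500, 1000 and 2000 bases had median differences of 0.46, 0.33, 0.29 and -0.09, and other coding genes 0.20, 0.17, -0.10 and -0.28. Spearman's rho with length was -0.49 over 81 members and -0.30 over 11781 other genes, as a description across genes. Ribosomal protein genes had a median difference of 0.33 and took 12.5% ± 1.91 of TPM in null and 9.68% ± 1.40 in wild type. The part of transcript length in the difference between genotypes was not tested.

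The 2 members that passed between regions differed little between genotypes. Uqcrb was at 270, 1056 and 1407 TPM in null and 458, 863 and 1029 TPM in wild type (difference 0.14). Uqcrfs1 was at 109, 273 and 499 TPM in null and 112, 293 and 389 TPM in wild type (difference 0.06). Both differences were under the SD between libraries. Atp5b was at 1010, 1529 and 2558 TPM in null and 1135, 1826 and 2237 TPM in wild type (difference -0.11), and Cox4i1 at 1121, 1862 and 2476 TPM in null and 1150, 1433 and 1897 TPM in wild type (difference 0.34).

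The mitochondrially encoded subunits ran opposite to the nuclear ones. They took 0.165%, 1.52% and 4.79% of TPM (lowest, median and highest) in null and 1.86%, 3.11% and 7.13% in wild-type libraries, and 8 of 13 null libraries were below the lowest wild-type library. All 13 had a difference below 0 (65.9% of all genes), with a median of -1.29. Within a genotype, Spearman's rho between the nuclear and the mitochondrial share was -0.25 over 13 null libraries and -0.71 over 12 wild-type libraries, and that between the nuclear and the ribosomal protein share 0.93 and 0.84. Between the nuclear share and the number of genes at 1 TPM or more it was 0.51 in null and 0.69 in wild type. These shares are parts of the same total in each library, and the values are descriptions. Over all 13680 genes with a mean of 1 TPM, 34.1% had a null-minus-wild-type difference above 0, and the median was -0.22. Among the other lists, 27 of 47 assembly factors were above 0 (median 0.16), 6 of 18 genes of the citric acid cycle (median -0.21), 4 of 21 of glycolysis (median -0.06), 6 of 7 carriers and cytochrome c genes (median 0.16), 4 of 11 of ubiquinone synthesis (median -0.07) and 2 of 14 regulators of biogenesis (median -0.35). The ATPase inhibitor Atpif1 and the supercomplex factors Higd1a and Higd2a were all above 0 (median 0.41). Of the cell-type lists, 7 of 8 red blood cell markers in the filter were above 0 (median 0.49), and the 10 listed summed to 2749, 7963 and 51767 TPM (lowest, median and highest) in null and 1263, 6540 and 32471 TPM in wild type. Of neuron markers 4 of 14 were above 0 (median -0.14), with sums of 150, 1519 and 2616 TPM in null and 559, 1282 and 2435 TPM in wild type. Of progenitor markers 4 of 14 were above 0 (median -0.12), with sums of 1742, 3150 and 3793 TPM in null and 1351, 2889 and 3855 TPM in wild type. The part of these cells in the members' values was not tested.

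With copies left out, the use of c subunit genes differed between the genotypes by less than the spread between libraries. The 3 genes of the c subunit gave 46.7% ± 7.4, 34.7% ± 4.58 and 18.6% ± 4.37 of their pool (Atp5g1, Atp5g2 and Atp5g3) in null and 45.5% ± 8.56, 34.2% ± 5.69 and 20.4% ± 5.39 in wild type. The pseudogene Gm10175, identical to Atp5g2 over 441 bases, had a mean of 193 TPM in null and 271 TPM in wild type. Atp5g2 went the other way, at 620 and 472 TPM. The shares of the pool with this copy added were not computed, so the use of Atp5g2 is uncertain. Cox6b2 reached 1 TPM in 12 of 13 null libraries (92.3%, exact 95% interval 64.0 to 99.8, for counting error only) and in 12 of 12 wild-type libraries (73.5 to 100%). Its mean of 44.9 TPM in null and 46.1 TPM in wild type was 3.53% and 5.16% of that of Cox6b1. Ndufa4l2 reached 1 TPM in 9 of 13 null and 7 of 12 wild-type libraries, Cox7a1 in 3 of 13 and 3 of 12, and Cox4i2 in 3 of 13 and 4 of 12. Cox6a2, Cox7b2, Cox8b and Cox8c were listed at 0 in all 25.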

How the data were processed

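Members and gene lists were chosen with earlier results of these data known. The submitters' processing notes list Trimmomatic, STAR (version 2.7.0a), featureCounts and the builds mm10 and GRCm38; roles and order are not given in the sources used here. The bulk values as deposited are estimated counts, although the table is named for TPM: columns sum to between 17604411 and 20838226, and 46.6% of values above 0 are whole within 0.0001. The authors deposited the Smart-seq2 values as TPM, which keep no depth. Symbols, coordinates and lengths came from GENCODE M21 (GRCm38), which matched 34651 of 34865 bulk and 55227 of 55487 Smart-seq2 identifiers; coding length is that of 1 representative transcript per gene.

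Bulk counts were rounded and tested with edgeR 4.0.16 in R 4.3.3 (TMM, quasi-likelihood test, mean of at least 1 CPM, Benjamini-Hochberg over 14701 genes, threshold 0.05), after a test on simulated data. Libraries held 17604166 to 20838002 counts. DESeq2 1.42.0, other scalings and filters, a replicate block and each library left out were alternatives. CPM are TMM-scaled, and levels per kilobase divide by transcript length. The SE belongs to the log2 fold change.

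Smart-seq2 columns name a genotype by colour letter but no numbered sample. Differences are of mean log2(TPM + 1), which understates changes of low genes. Copies were found with BLAST 2.17.0. Named members are those past the threshold, the highest per kilobase and the extreme fold changes or differences of each complex, isoforms with their partners, and c-subunit genes; other members were named after their values were seen.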

Additional observations from a re-analysis of the deposited data

How the results depend on the processing

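The count of members higher in ventral was 2 with all libraries, 5 with DESeq2 (13.7% of all genes), 1 with no filter (6.39%) and 0 with the replicate number as a block (7.37%), and ranged from 0 to 52 when a library was left out, where 52 was without dorsal library 3 (12.4%), 6 without ventral library 3 (13.1%) and the other 4 gave 0 (5.69% to 6.26%). DESeq2 added Atp5c1, Ndufv2 and Uqcrc2. Replicate numbers are not said in the labels to pair libraries, and same-numbered libraries deviated together with correlations of 0.0708, 0.0973 and 0.114, not all over 0.1, so the block was not taken as a pairing; dorsal library 2 correlated best with ventral library 1 (0.15). Under the block the adjusted p was 0.0633 for Uqcrb and 0.0717 for Uqcrfs1 (edgeR), and with no filter 0.0529 for Uqcrfs1. The count higher in dorsal was 0 in all settings. The members' median was -0.61 to -0.13 with a library left out and -0.35 to -0.26 otherwise; the median of all genes was 0.11 with no filter. The Smart-seq2 median of members ranged from 0.25 to 0.34. The lowest was over the 9 null and 9 wild-type libraries with 10000 or more genes at 1 TPM, an alternative chosen after seeing the data. The median of all genes moved more, from -0.22 to -0.32 with log2(TPM + 0.1) and -0.10 with log2(TPM + 10). It was -0.14 with the difference of medians, -0.21 over the libraries with 10000 or more genes, and 0 with no filter.

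Signs turned in 8 bulk members, and the cause was not tested. With library totals only, Cox4i1 was at 0.0372 and Cox7a2l at 0.0344; Sdhc was at -0.0160 with DESeq2 and with RLE scaling and at -0.0200 with a 5 CPM filter; Ndufb7 was at -0.13 with the replicate block. With a library left out, Cox4i1 ranged from -0.54 to 0.22, Cox6a1 from -0.61 to 0.00528, Cox7a2l from -0.37 to 0.13, Sdhc from -0.0501 to 0.0679, Ndufb7 from -0.65 to 0.37, Atp5d from -0.0199 to 0.53, Atp5g2 from -0.23 to 0.32 and Uqcrc1 from -0.0743 to 0.22. Over the named members, 274 of the bulk values under alternatives kept sign and side of the threshold, 23 turned sign (1 of them, Ndufb7 without dorsal library 3, newly past the threshold), 13 passed newly with the same sign and 11 were lost. All 165 Smart-seq2 values moved by less than 1 SD between libraries, but 7 turned sign, in 5 members. Over the libraries with 10000 or more genes, Ndufa4l2 was at -0.45, Uqcrfs1 at -0.18, Cox7a2l at -0.03 and Uqcrc1 at -0.02; with the difference of medians, Cox6b2 was at 0.14, Uqcrfs1 at -0.10 and Cox7a2l at -0.04. Bulk library number and the unknown Smart-seq2 depth limit the precision.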
